A study of Mus musculus with 13 samples.

Results

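The 9 genes described here are those of export pumps, the liver X receptors (LXRs) and LXR targets: Abca1, Abcg1, Abcg2, Nr1h2, Nr1h3, Mylip, Apoe, Srebf1 and Acsl3. Abcg2 encodes an export pump but not a classical sterol pump. The set is 9 of the 41743 genes in the deposited table, and all 9 passed the filters on low values that are given with each comparison. The set was chosen by the RPKM of Abca1 and Abcg2, which were higher in eosinophils from the WT thymus than in those from the WT spleen and lung. WT thymus against either organ is therefore given as a description, with no p printed for any of the 9 genes. Abca1 and Abcg2 are described without a test wherever a WT group enters. Eosinophils were purified by flow cytometry as CD11b+ Siglec-F+ cells, after enrichment on Siglec-F beads, and their RNA was sequenced. The Rag-KO + anti-CD3 group (2 libraries) came from the thymus of Rag2-/- mice on day 10 after an injection of anti-CD3 antibody, which drives thymocyte development past the block in these mice. The Rag-KO + control group (2 libraries) came from the thymus on day 10 after hamster IgG, and its replicate 1 was Rag2-/- and its replicate 2 Rag1-/-. Both groups were injected at 8 weeks of age, and Rag-KO mice have no mature T or B cells of their own. WT thymus, WT lung and WT spleen had 3 libraries each, from wild-type mice, and all mice were on the C57BL/6N background and analysed at 8 to 10 weeks of age. Cells were freed from thymus and lung by enzyme digestion but from spleen by mashing, so that against spleen the organ and how it was prepared cannot be told apart. Nothing in the sources says that the libraries of a group came from separate mice, so the p-values measure the spread between libraries, which may be technical.

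LXRs are nuclear receptors that bind oxysterols, the oxidised derivatives of cholesterol. With a retinoid X receptor as partner they bind direct repeats of a short motif in DNA, and when sterol is abundant they induce genes that carry cholesterol out of the cell, limit its uptake and raise fatty acid synthesis. In macrophages, the cells in which the pathway is best known, this programme protects from sterol overload. When sterol is scarce, the other arm of the control, the SREBP2 transcription factor, induces cholesterol synthesis and uptake.

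Values are RPKM, reads scaled to the length of the gene and to the mapped reads of the library, and library totals ran from 4765122 to 6431540 reads. All 6 eosinophil markers looked at (Siglecf, Ccr3, Il5ra, Prg2, Epx and Itgam) were above 0 in every group. Replicate 3 of WT thymus, WT lung and WT spleen and Rag-KO + control replicate 2 deviated from their group means together, with correlations across genes from 0.27 to 0.57, and are called the 4 libraries that stood apart. Genes of the mitochondrial genome took 22.0% of the RPKM of WT spleen replicate 3, while their share elsewhere was 1.60 to 6.02%. The only Rag1-/- library is 1 of these 4, so genotype and this deviation cannot be told apart in the Rag-KO + control pair. The 12 thymocyte and T cell markers summed to 31.2 to 34.0 RPKM in Rag-KO + anti-CD3, 2.96 to 7.03 in Rag-KO + control, 13.3 to 61.7 in WT thymus, 0.761 to 1.68 in WT lung and 1.36 to 2.86 in WT spleen. Dntt, Rag1 and Thy1 were at 0 in all WT lung and WT spleen libraries. The 7 neutrophil markers summed to 45.3 to 177 RPKM in Rag-KO + anti-CD3, 885 to 4776 in Rag-KO + control, 445 to 2249 in WT thymus, 383 to 758 in WT lung and 31.7 to 26177 in WT spleen. The 15 macrophage and monocyte markers summed to 193 to 200 RPKM in Rag-KO + anti-CD3, 162 to 223 in Rag-KO + control, 134 to 183 in WT thymus, 107 to 164 in WT lung and 102 to 235 in WT spleen, most of it from Csf1r in all libraries but WT spleen replicate 3. Vsig4 was at 0 in all but the Rag-KO + anti-CD3 group. In bulk samples fewer cells of a type and less RNA per cell cannot be told apart.

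The letters that LXRs bind are shown first, because they can be read directly in the promoters of some of these genes. RefSeq windows of the GRCm38.p6 build, from 250 bases before to 50 bases after the transcription start, were at hand for 8 of the 9 genes (15 windows, since some genes have several starts). The direct repeat was searched on both strands as NGGTNANNNNNGGTNA, the motif NGGTNA in 2 copies with 4 bases between them. It was present in 3 of the 15 windows, those of Abca1, of the third start of Srebf1 and of Acsl3, and in 236 of all 32851 windows (0.718%). The bases just after this start of Srebf1 were found in 0 annotated transcripts of the gene, against 1 each for Abca1 and Acsl3. The repeat lies from 67 to 52 bases before the start in Abca1, from 182 to 167 in Srebf1 and from 112 to 97 in Acsl3. Each stretch below is given 5′ to 3′ along the gene with the repeat in capitals, which reads on the opposite strand in all 3, and lies outside annotated exons. Abca1 is at chr4:53159927-53159982 (minus strand), Srebf1 at chr11:60210618-60210673 (minus strand) and Acsl3 at chr1:78657693-78657748 (plus strand).
Abca1: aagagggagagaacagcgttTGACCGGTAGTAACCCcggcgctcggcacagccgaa
Srebf1: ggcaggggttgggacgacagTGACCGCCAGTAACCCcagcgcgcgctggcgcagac
Acsl3: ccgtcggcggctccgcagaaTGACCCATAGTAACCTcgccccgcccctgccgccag
The same base stood at 12 of the 16 positions of the repeat in all 3 genes. The search fixes every position not written as N, so part of this likeness was set in advance. The sterol response element, searched as TCACNCCAC on both strands, was in none of the 15 windows and in 408 of all windows (1.24%). A match is a description of the letters and not evidence of binding.

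**Figure D1:**
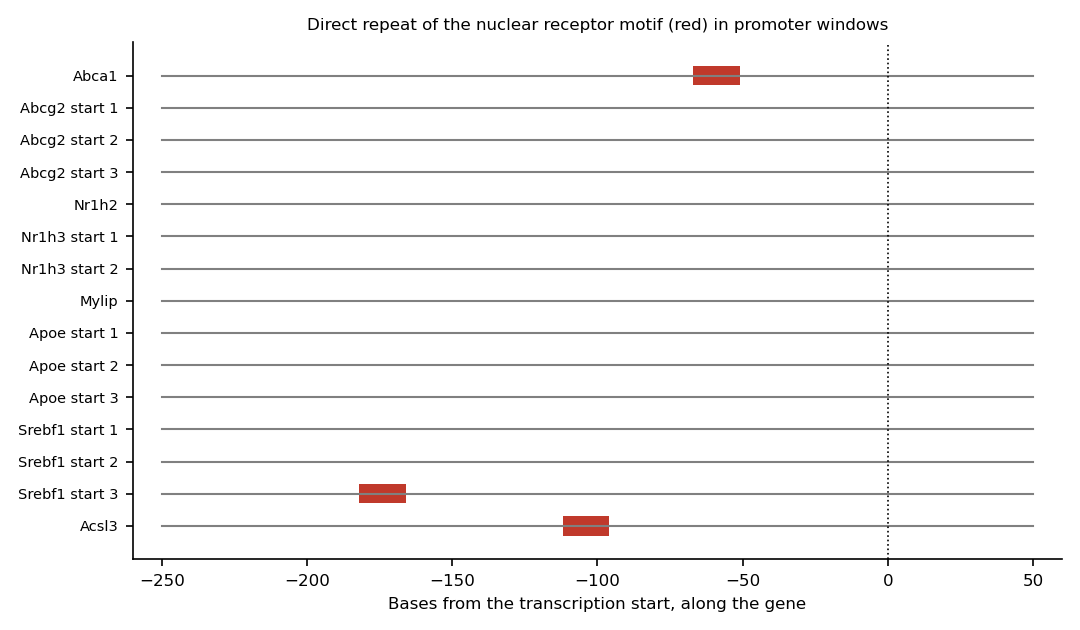
Position of the direct repeat in the promoter windows. Each grey line is 1 window from 250 bases before to 50 bases after a transcription start (x axis, bases along the gene), and red boxes mark the repeat, which is seen in 3 of 15 windows, at 67 to 52 bases before the start in Abca1, 182 to 167 in Srebf1 and 112 to 97 in Acsl3.

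Among the pumps, Abca1 and Abcg2 had the highest mean in WT thymus and were lowest in the WT lung, while the mean of Abcg1 was lowest in the WT spleen. Abca1 (ENSMUSG00000015243; mm10, chromosome 4, 53030787 to 53159895, minus strand) hands cholesterol and phospholipid to lipid-poor apolipoprotein A-I, the first step of high-density lipoprotein formation. It was at 5.56 and 7.30 RPKM in Rag-KO + anti-CD3, 6.71 and 2.30 in Rag-KO + control, 12.2, 8.69 and 5.88 in WT thymus, 0.506, 1.31 and 1.20 in WT lung and 1.33, 1.07 and 0.818 in WT spleen. All thymic libraries, from WT and Rag-KO mice alike, were above every lung and spleen library, and the 3 thymic groups overlapped with one another. The values rest on 149 to 680 reads per thymic library, against 30 to 80 in lung and spleen. Its means were 8.92 ± 3.16 RPKM in WT thymus, 1.01 ± 0.437 in WT lung and 1.07 ± 0.258 in WT spleen (SD, n = 3 each).

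Abcg1 (ENSMUSG00000024030; chromosome 17, 31057675 to 31117988, plus strand) moves cholesterol to mature high-density lipoprotein and acts after Abca1. It was at 24.7 and 24.0 RPKM in Rag-KO + anti-CD3, 19.5 and 5.92 in Rag-KO + control, 30.0, 31.2 and 15.9 in WT thymus, 11.5, 10.4 and 6.30 in WT lung and 10.6, 8.93 and 3.59 in WT spleen. Each of the 4 libraries that stood apart was the lowest of its group. The Rag-KO + anti-CD3 libraries lay inside the WT thymus range and above both Rag-KO + control libraries, and Rag-KO + control overlapped with lung. Abcg2 (ENSMUSG00000029802; chromosome 6, 58584523 to 58695676, plus strand) is best known as an exporter of drugs, urate and porphyrins, and is not a classical sterol pump.

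Abcg2 was at 7.83 and 11.1 RPKM in Rag-KO + anti-CD3, 3.13 and 0.867 in Rag-KO + control, 18.0, 17.0 and 15.9 in WT thymus, 1.70, 1.27 and 1.22 in WT lung and 4.60, 3.89 and 1.78 in WT spleen. It was the pump with the clearest steps between groups: WT thymus stood above Rag-KO + anti-CD3, and Rag-KO + anti-CD3 above WT spleen, with no overlap at either step. Below these, WT spleen overlapped with Rag-KO + control, and Rag-KO + control with WT lung. The 2 Rag-KO + control libraries hold 112 and 33 reads of Abcg2, so the lower of them is the least certain of the thymic values.

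**Figure D2:**
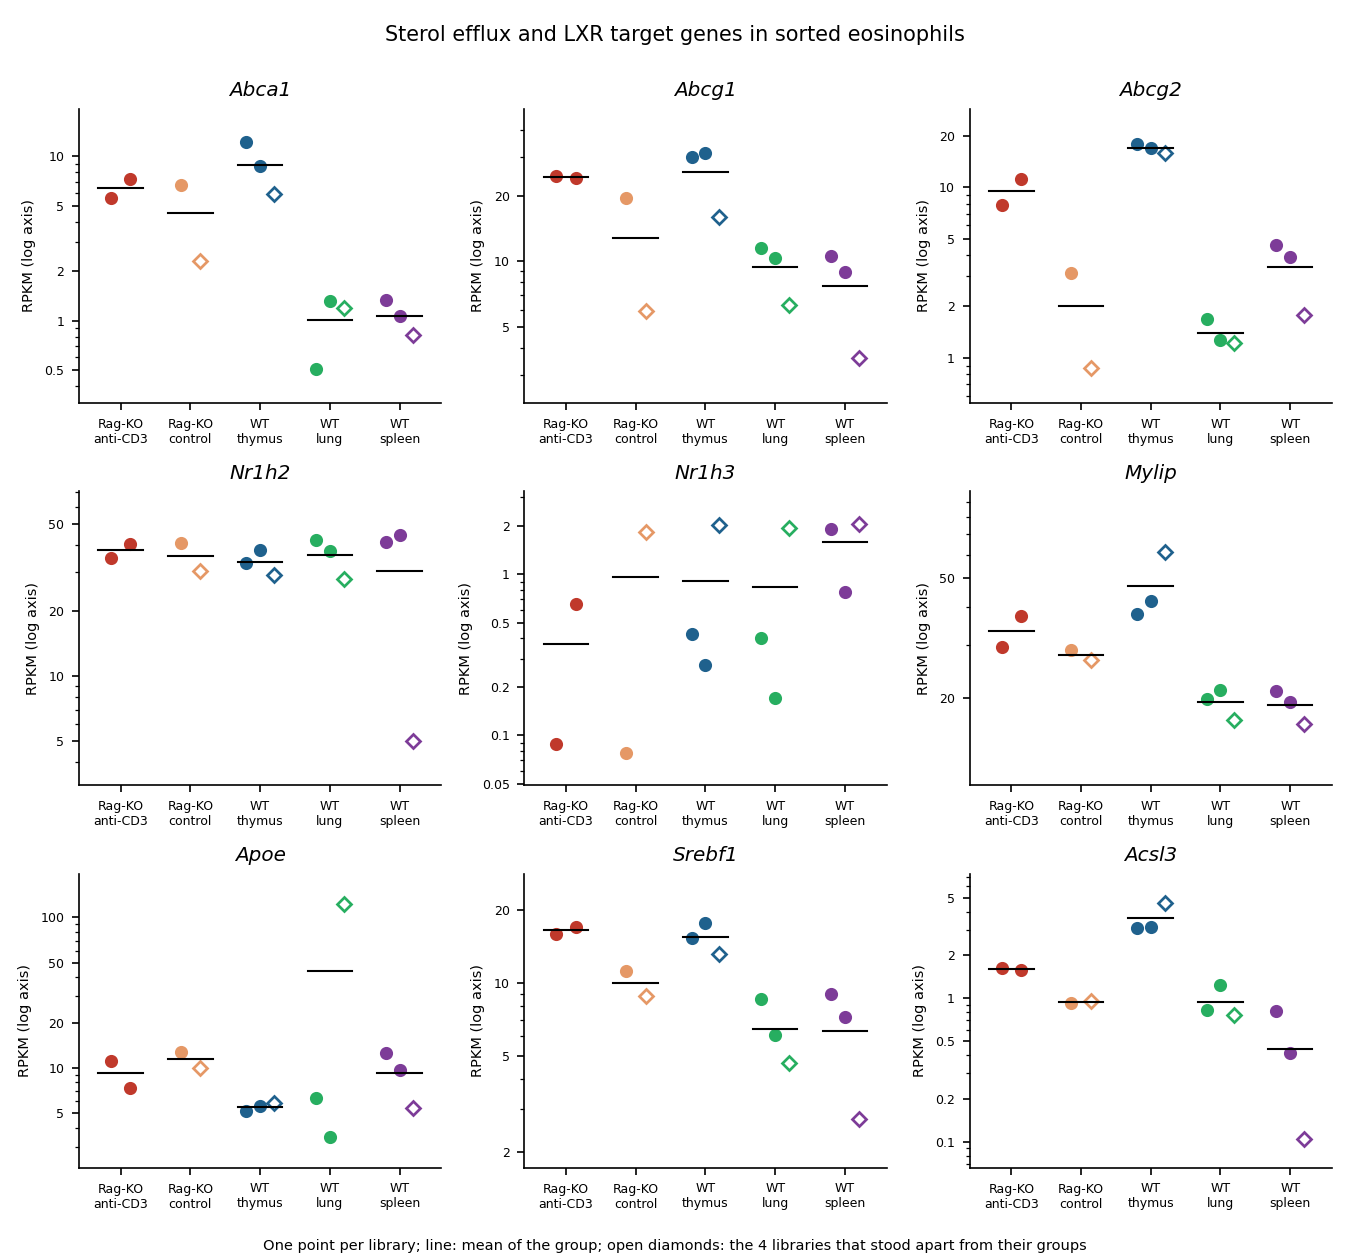
RPKM of the 9 genes in each library, on log axes. Each point is 1 library of the 5 groups on the x axis, lines are group means and open diamonds are the 4 libraries that stood apart. Abcg2 falls into separate levels in WT thymus (15.9 to 18.0 RPKM), Rag-KO + anti-CD3 (7.83 and 11.1) and Rag-KO + control (3.13 and 0.867), while Nr1h2 lies between 27.9 and 44.4 in all libraries but WT spleen replicate 3.

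The receptor genes were not ordered across groups as the pumps were. Nr1h2 (ENSMUSG00000060601; chromosome 7, 44549616 to 44553951, minus strand), which encodes LXR beta, was at 35.1 and 40.6 RPKM in Rag-KO + anti-CD3, 40.8 and 30.3 in Rag-KO + control, 33.0, 38.0 and 29.1 in WT thymus, 42.1, 37.8 and 27.9 in WT lung and 41.5, 44.4 and 5.01 in WT spleen. All groups overlapped, and the value of 5.01 is from the spleen library with the high mitochondrial share. Nr1h3 (ENSMUSG00000002108; chromosome 2, 91184061 to 91202834, minus strand), which encodes LXR alpha, the form best known from macrophages and liver, was at 0.0885 and 0.652 RPKM in Rag-KO + anti-CD3, 0.0783 and 1.84 in Rag-KO + control, 0.428, 0.275 and 2.03 in WT thymus, 0.403, 0.170 and 1.93 in WT lung and 1.91, 0.773 and 2.05 in WT spleen. The highest value of each group that holds one came from a library that stood apart, and no library had more than 28 reads. RPKM is per length, so the level of Nr1h2 can be set against that of Nr1h3: it was the higher of both receptors in all 13 libraries.

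Mylip, Srebf1 and Acsl3, which encode LXR targets outside the pumps, had their lung and spleen libraries below all WT thymus libraries. Mylip (ENSMUSG00000038175; chromosome 13, 45389742 to 45412022, plus strand) encodes IDOL, a ubiquitin ligase that limits the uptake of lipoproteins. It was at 29.5 and 37.5 RPKM in Rag-KO + anti-CD3, 28.9 and 26.8 in Rag-KO + control, 38.2, 42.0 and 61.0 in WT thymus, 19.9, 21.2 and 16.9 in WT lung and 21.1, 19.4 and 16.4 in WT spleen. The groups were ordered as WT thymus, Rag-KO + anti-CD3, Rag-KO + control and then both peripheral organs, without overlap at any step before lung and spleen, which overlapped.

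Srebf1 (ENSMUSG00000020538; chromosome 11, 60199089 to 60222581, minus strand) encodes SREBP1, whose 1c form drives fatty acid synthesis and is induced by LXRs. It was at 16.0 and 16.9 RPKM in Rag-KO + anti-CD3, 11.2 and 8.80 in Rag-KO + control, 15.4, 17.6 and 13.1 in WT thymus, 8.60, 6.09 and 4.65 in WT lung and 9.0, 7.24 and 2.75 in WT spleen. Rag-KO + anti-CD3 and WT thymus overlapped, and both stood above Rag-KO + control. The gene-level values do not separate its 1a and 1c forms.

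Acsl3 (ENSMUSG00000032883; chromosome 1, 78657825 to 78707743, plus strand) encodes a long-chain acyl-CoA synthetase of the endoplasmic reticulum and lipid droplets, and is known as an LXR target from human placental cells. It was at 1.62 and 1.58 RPKM in Rag-KO + anti-CD3, 0.928 and 0.953 in Rag-KO + control, 3.09, 3.11 and 4.60 in WT thymus, 0.825, 1.23 and 0.758 in WT lung and 0.815, 0.416 and 0.105 in WT spleen. The level was low throughout (2 to 118 reads a library), yet the 3 thymic groups did not overlap with one another.

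Apoe (ENSMUSG00000002985; chromosome 7, 19696109 to 19699188, minus strand), which encodes an apolipoprotein that takes up effluxed cholesterol, was the target that went another way. It was at 11.1 and 7.34 RPKM in Rag-KO + anti-CD3, 12.7 and 10.0 in Rag-KO + control, 5.15, 5.61 and 5.82 in WT thymus, 6.31, 3.46 and 122 in WT lung and 12.6, 9.70 and 5.45 in WT spleen. WT thymus stood below both Rag-KO groups without overlap, and 1 lung library stood far above all the rest. In that library, WT lung replicate 3, some other genes of macrophages and lung epithelium were high too. Pltp was at 32.1 RPKM (10.4 and 6.07 in WT lung replicates 1 and 2) and Cd36 at 31.2 (9.93 and 3.86). The surfactant gene Sftpc was at 53.9 (8.09 and 6.21) and the macrophage gene C1qa at 9.27 (0.166 and 0). These are picked examples. The 15 macrophage and monocyte markers together summed to 164 RPKM there, against 147 and 107, and 6 of them were at 0. The 8 epithelial markers summed to 55.2 RPKM, against 8.48 and 6.31, and nearly all of it was Sftpc. The part of any of these genes in the Apoe value was not tested.

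The first comparison asks how eosinophils of the WT thymus differ from those of the periphery, and it is the one that served to choose the set. Abca1, Abcg1, Abcg2, Mylip, Srebf1 and Acsl3 were higher in every WT thymus library than in every spleen and every lung library. Of all genes tested 16.4% were above in this way and 4.56% below over spleen, and 22.9% above and 7.55% below over lung. Fitted log2 fold changes, on the scale of log2(RPKM + 1), were 2.22 for Abca1, 2.08 for Abcg2, 1.68 for Acsl3, 1.67 for Abcg1, 1.27 for Srebf1 and 1.25 for Mylip over spleen (standard errors 0.26 to 0.42). Over lung they were 2.91 for Abcg2, 2.28 for Abca1, 1.34 for Abcg1, 1.24 for Acsl3, 1.22 for Mylip and 1.16 for Srebf1. The median of the 9 genes was 1.27 over spleen, against 0.25 for all 9096 genes tested, and 1.22 over lung, against 0.20. This shift of all genes came down to -0.02 and 0.02 under quantile normalisation. Relative to the shift, Abca1 was higher by 1.96 over spleen and by 2.08 over lung, and Mylip by 0.99 and 1.02.

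Genes were called, in the fit of the 9 WT libraries, where the adjusted p was under 0.05 and the log2 fold change was larger than 1 in either direction. Abca1, Abcg2, Mylip and Acsl3, 4 of the 9 genes, were past these limits over spleen, where 1.7% of all genes were called higher and 0.583% lower. The same 4 were past them over lung, where 1.91% were called higher and 1.33% lower. Since these values chose the set, the counts are a description and nothing is read from them. The same holds for the changes of these calls under other settings, given below. Acsl3 passed the filter of the WT fit only through WT thymus. Its only value above 1 RPKM in lung or spleen was 1.23 in WT lung replicate 2. Over spleen only Abca1 was called without WT thymus replicate 1 or 2, and over lung only Abca1 and Abcg2 without any 1 thymus or lung library or without WT spleen replicate 2. Mylip also lost its call over spleen without WT thymus replicate 3 and without replicate 1 or 2 of either peripheral organ, and over lung without WT spleen replicate 1. Without WT spleen replicate 3, Abcg1 and Srebf1 were added over lung. Mylip was not called under upper-quartile scaling or without the 4 libraries that stood apart, over either organ, nor under quantile normalisation over spleen. Acsl3 was not called over lung under quantile normalisation, with a pseudocount of 0.1 or 5 or without the filter, nor over spleen with a pseudocount of 5. Abcg1 was called over spleen under quantile normalisation, and over both organs without the 4 libraries or with a term for them. Srebf1 was called over both organs with that term and over lung without the 4 libraries. With the replicate number as a block, Abcg1 was added and 5 genes were called in each comparison. Among all genes the calls were 155 higher and 53 lower over spleen and 174 and 121 over lung. Under upper-quartile scaling they were 137 and 78 and 145 and 171, and under quantile normalisation 140 and 93 and 159 and 205. Of the 12 thymocyte markers 7 were tested, and 6 (Tcf7, Lck, Dntt, Cd8b1, Cd3g and Cd3e) were called higher in thymus in both comparisons. All 12 together summed to at most 1.68 RPKM in a lung library and 2.86 in a spleen library. Those tested passed the filter mainly through WT thymus, so the direction of these calls was largely set in advance. Their part in the values of the 9 genes was not tested. WT thymus replicate 3, 1 of the 4 libraries that stood apart, had the lowest thymocyte sum of its group (13.3 RPKM, against 61.7 and 35.0). It was the highest of its group for Mylip and Acsl3 and the lowest for Abca1, Abcg1, Abcg2 and Srebf1. In lung and spleen too, Abcg1, Abcg2 and Srebf1 were lowest in the library that stood apart. Thymocyte content and this deviation therefore cannot be told apart in WT thymus replicate 3. Of the 15 macrophage and monocyte markers 6 were tested. Their median was 1.03 over lung, with 6 of 6 above 0, and -1.21 over spleen, with 2 of 6 above 0. Among all genes tested 67.9% were above 0 over lung and 71.8% over spleen. The part of these markers was not tested either.

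The choice by Abca1 and Abcg2 in WT organs used no library of the Rag-KO + anti-CD3 against Rag-KO + control comparison. The 9 genes were still chosen with earlier results of these data known, so the test may not be independent of the choice. This comparison asks what changes in thymic eosinophils when thymocyte development is induced. All 9 genes were tested in a fit of the 13 libraries over the 9763 genes that reached 1 RPKM in 2 or more libraries, and none was called, while 0.0512% of all genes were called higher and 0.0819% lower. Abcg2 was the member with the largest difference, at 7.83 and 11.1 RPKM in Rag-KO + anti-CD3, against 3.13 and 0.867 in Rag-KO + control. Its log2 fold change was 1.90 (standard error 0.42, 95% interval 0.99 to 2.80), with an adjusted p of 0.144 from limma. Abcg2 was also the only 1 of the 9 genes at an unadjusted p under 0.05, as were 5.22% of all genes. It was called without WT spleen replicate 3 (adjusted p = 0.0301), without Rag-KO + control replicate 1 (2.47, adjusted p = 0.0295) and without the 4 libraries that stood apart (1.32, adjusted p = 0.0369). Its adjusted p ran from 0.0295 to 1 over all alternatives, and was 1 without Rag-KO + control replicate 2.

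Both Rag-KO + anti-CD3 libraries were above both Rag-KO + control libraries for 5 of the 9 genes (Abcg1, Abcg2, Mylip, Srebf1 and Acsl3) and below them for none. Among all genes tested 19.2% were above in this way and 22.3% below. The log2 fold change was 1.09 for Abcg1 (standard error 0.56), 0.67 for Srebf1 (0.43) and 0.42 for Acsl3 (0.30), each with an adjusted p of 1 from limma. The difference of Abcg1 rested on Rag-KO + control replicate 2, since it was 0.30 without the 4 libraries that stood apart. That of Abca1, 0.55 (0.43, adjusted p = 1 from limma), was -0.063 without them. The median of the 9 genes was 0.42, against -0.03 for all genes. Of the 10 thymocyte markers tested, 9 were higher in Rag-KO + anti-CD3 at an unadjusted p under 0.05, and the neutrophil sums given above were lower. Thymocyte markers could pass the filter through the groups where they are high, so that count is a description. The part of the thymocyte and neutrophil markers in these values was not tested.

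**Figure D3:**
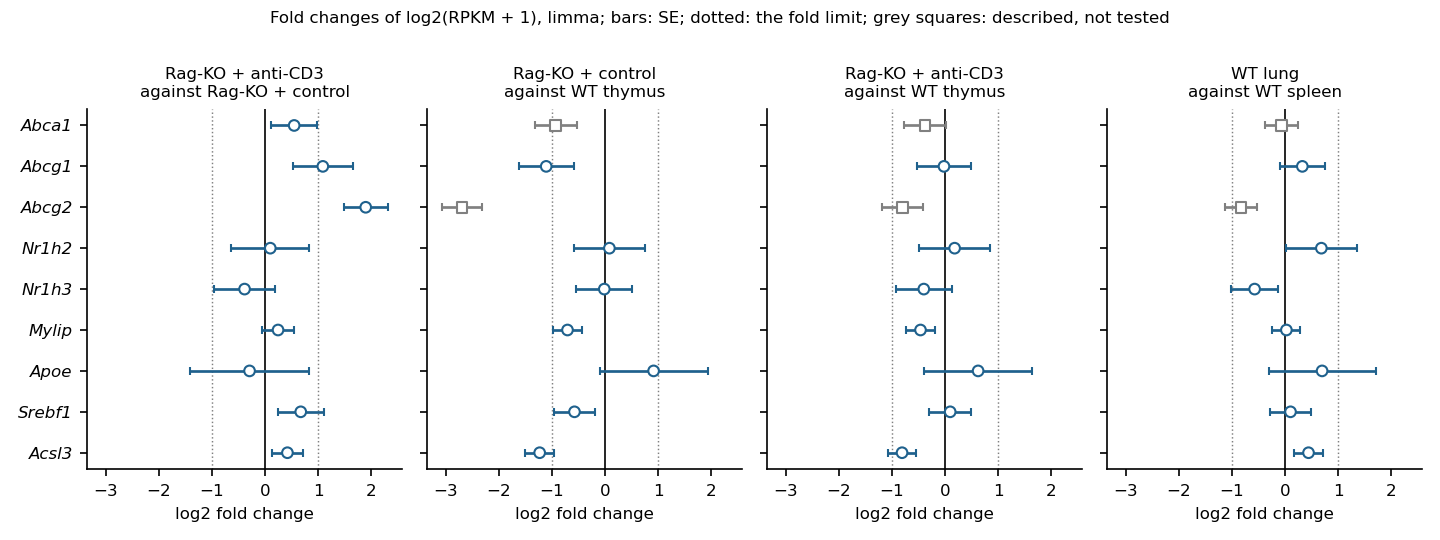
Log2 fold changes of the 9 genes on the log2(RPKM + 1) scale in 4 comparisons, with standard errors as bars and dotted lines at a log2 fold change of 1 in size. Grey squares are Abca1 and Abcg2 in the comparisons with a WT group, which are described without a test, and open circles are tested genes, none of which was called. Abcg2 is at 1.90 in Rag-KO + anti-CD3 against Rag-KO + control and Acsl3 at -1.23 in Rag-KO + control against WT thymus.

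Thymic eosinophils of Rag-KO + control mice were next set against those of WT thymus, which asks what differs when thymocytes stop at an early stage. WT thymus libraries served to choose Abca1 and Abcg2, so these are described without a test. The fitted difference of Abcg2 was -2.69 (standard error 0.38), and that of Abca1 was -0.93 (0.39). That of Abcg2 was -2.16 without the 4 libraries that stood apart and -3.18 between the libraries of these groups that stood apart.

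Of the 7 other genes none was called, where 0.502% of all genes were called higher and 0.584% lower. Of these 7, 2 (Acsl3 and Mylip) were lower in Rag-KO + control at an unadjusted p under 0.05, against 7.71% of all genes in either direction. Acsl3 was at 0.928 and 0.953 RPKM in Rag-KO + control, against 3.09, 3.11 and 4.60 in WT thymus. Its log2 fold change was -1.23 (standard error 0.27, adjusted p = 0.0588 from limma). This value lay close to the threshold and crossed it in 5 of 24 settings, among them without WT spleen replicate 3 (adjusted p = 0.0169) and without the 4 libraries that stood apart (0.0409), with a range from 0.0169 to 0.372. Mylip differed by -0.71 (0.27, adjusted p = 0.444 from limma), Abcg1 by -1.11 (0.51, adjusted p = 0.665) and Srebf1 by -0.57 (0.39, adjusted p = 0.962). Abcg2, Mylip, Srebf1 and Acsl3 were below all WT thymus libraries in both Rag-KO + control libraries, and Apoe was above them. Among all genes tested 11.6% were below and 13.4% above in this way. The median of the 9 genes was -0.71, against 0.00 for all genes. All 10 thymocyte markers tested were lower in Rag-KO + control at an unadjusted p under 0.05. They could pass the filter through WT thymus, where they are high, so this count is a description. Of the macrophage and monocyte markers tested, 7 of 9 were above 0, with a median of 0.80 and none called. For the neutrophil markers 7 of 7 were above 0, with a median of 2.57 and none called. Among all genes tested 50.2% were above 0. The part of these lists was not tested.

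Rag-KO + anti-CD3 against WT thymus asks what still differs after thymocyte development was induced. Of the 7 genes tested none was called, and 0.0717% of all genes were called higher and 0.0102% lower. Acsl3 was the only tested gene at an unadjusted p under 0.05, as were 2.65% of all genes. It stood at 1.62 and 1.58 RPKM in Rag-KO + anti-CD3, against 3.09, 3.11 and 4.60 in WT thymus. The log2 fold change of Acsl3 was -0.81 (standard error 0.27, adjusted p = 1 from limma). Mylip differed by -0.46 (0.27, adjusted p = 1 from limma), and Abcg2, described without a test, by -0.80 (0.38). Abcg1 and Srebf1 overlapped between both groups. The 3 comparisons among thymic groups share libraries, so their values are set side by side and not correlated.

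WT lung against WT spleen asks whether the peripheral organs differ. Of the 7 genes other than Abca1 and Abcg2 none was called, and 0.616% of all genes were called higher in lung and 0.088% lower. None of the 7 was at an unadjusted p under 0.05, against 5.66% of all genes. Abcg2, described without a test, was at 1.70, 1.27 and 1.22 RPKM in WT lung, against 4.60, 3.89 and 1.78 in WT spleen, which did not overlap. Its fitted difference was -0.83 (standard error 0.30), -1.13 without WT spleen replicate 3 and -1.08 without the 4 libraries that stood apart. Acsl3 differed by 0.45 (0.27, adjusted p = 0.933 from limma) and Nr1h3 by -0.57 (0.44, adjusted p = 0.933). Abca1, Abcg1, Mylip and Srebf1 overlapped between these organs, and the 95% interval of the difference ran from -0.56 to 0.62 for Mylip.

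Other genes of the pathway were taken from lists drawn up by function. Of 15 other LXR target genes 8 passed the filter in the WT fit and 11 in the fit of 13 libraries. Scd2, a fatty acid desaturase, was called higher in WT thymus over both organs, and Pltp, which transfers phospholipid between lipoproteins, was called lower over lung. In the other 4 comparisons none of this list was called. Scd2 was at 15.2 and 19.1 RPKM in Rag-KO + anti-CD3, 10.0 and 5.01 in Rag-KO + control, 29.7, 27.4 and 25.1 in WT thymus, 2.28, 1.47 and 3.32 in WT lung and 7.70, 3.16 and 2.96 in WT spleen. Its levels fell into the same separate steps in the 3 thymic groups as those of Abcg2. The fold change of Scd2 was 1.15 in Rag-KO + anti-CD3 against Rag-KO + control (standard error 0.44, adjusted p = 0.698 from limma). It was -1.80 in Rag-KO + control against WT thymus (0.40). That difference is described without a test, since Scd2 was named for its values in WT thymus. The targets with the highest means did not fall into these 3 steps: Smpdl3a, a phosphodiesterase, lay between 238 and 459 RPKM in all libraries, and Rnf145, a ubiquitin ligase of sterol sensing, between 11.3 and 23.2. Rnf145 was still lower in both Rag-KO + control libraries (15.9 and 12.7) than in any WT thymus (18.5 to 20.9) or Rag-KO + anti-CD3 library (18.8 and 19.1). Lpcat3, which remodels membrane phospholipids, was at 211 and 181 RPKM in Rag-KO + anti-CD3, 200 and 216 in Rag-KO + control, 162, 149 and 199 in WT thymus, 106, 91.0 and 108 in WT lung and 120, 109 and 62.9 in WT spleen. All thymic libraries were above all peripheral ones for Lpcat3, but the Rag-KO groups were not below WT thymus.

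Of 22 genes of sterol synthesis and SREBP2 targets, 20 passed the filter in the fit of 13 libraries. The median log2 fold change of this list was 0.40 in Rag-KO + control against WT thymus, against 0.00 for all genes, and -0.22 in Rag-KO + anti-CD3 against Rag-KO + control, against -0.03. Sc5d, an enzyme of cholesterol synthesis, was called lower in WT thymus over both spleen and lung.

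None of the LXR partners and cofactors (6 of 8 tested), long-chain acyl-CoA synthetases other than Acsl3 (3 of 4 tested) and other ABC export pumps (6 of 13 tested) was called in any comparison, with the tested numbers given for the fit of 13 libraries. Rxra, the most abundant retinoid X receptor gene here, was at 58.8 and 58.0 RPKM in Rag-KO + anti-CD3, 61.1 and 32.7 in Rag-KO + control, 59.0, 58.8 and 35.4 in WT thymus, 46.3, 45.1 and 35.5 in WT lung and 48.6, 51.6 and 11.7 in WT spleen. As with Nr1h2, the lowest value of each group that holds one came from a library that stood apart. Of the genes for sterol uptake, storage and oxysterol enzymes, 8 of 12 were tested in that fit and 7 in the WT fit, and Cd36, a scavenger receptor, was the only one called, lower in WT thymus over lung. Nceh1, a hydrolase of cholesterol esters, was at 26.6 and 21.3 RPKM in Rag-KO + anti-CD3, 24.7 and 17.1 in Rag-KO + control, 22.1, 19.9 and 25.5 in WT thymus, 16.8, 13.6 and 14.5 in WT lung and 12, 11.6 and 13.5 in WT spleen. Its thymic libraries were all above the peripheral ones, and the thymic groups overlapped.

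**Figure D4:**
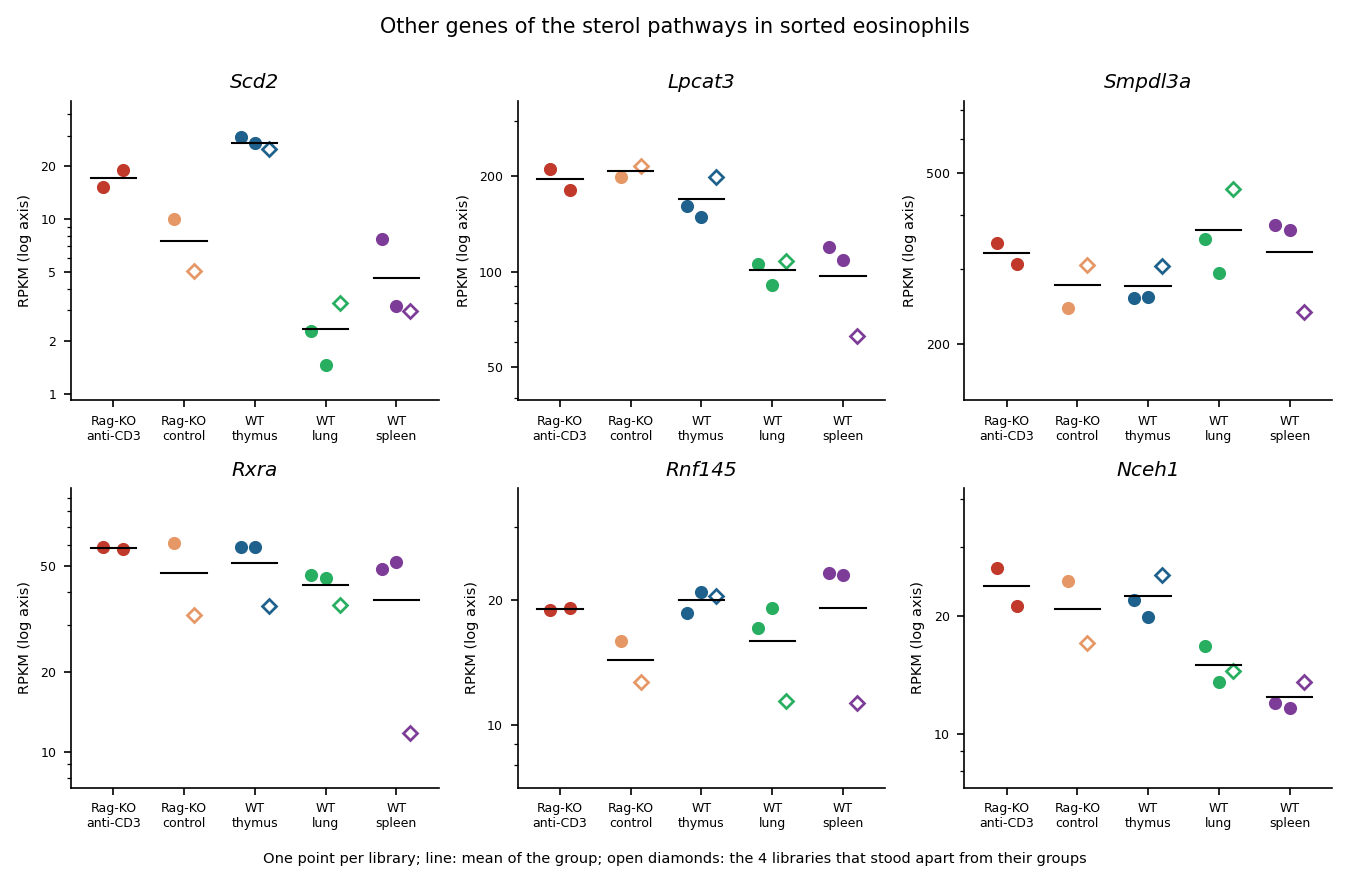
RPKM of 6 further genes of the sterol pathways in each library, on log axes, with group means as lines and open diamonds for the 4 libraries that stood apart. Scd2 steps down between WT thymus (25.1 to 29.7 RPKM), Rag-KO + anti-CD3 (15.2 and 19.1) and Rag-KO + control (10.0 and 5.01). Rnf145 lies between 11.3 and 23.2 in all libraries, with Rag-KO + control (15.9 and 12.7) below the other thymic groups.

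Over the 13 libraries and 4146 genes with a mean RPKM of at least 10, the genes whose log2(RPKM + 1) was most like that of Abca1 were Spata13, Slc24a3, Scd2, Hbegf and Osgin2, with Pearson's r from 0.92 to 0.94. Those most like Abcg2 were P2ry13, Mbnl1, Slco4a1, Pglyrp2 and Cd34, with r from 0.94 to 0.96. The libraries share organs and replicate numbers, so these r are a description. By rank (Spearman's rho) 0 of the 5 genes for Abca1 and 1 of the 5 for Abcg2 were found again, so the names depend on the measure. Within the set, r with Abca1 was 0.85 for Abcg1, 0.85 for Mylip, 0.83 for Srebf1, 0.82 for Abcg2 and 0.78 for Acsl3, and it was 0.26 for Nr1h2, -0.22 for Apoe and -0.40 for Nr1h3.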

How the data were processed

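Eosinophil RNA was amplified by the SMART-seq method and read on an Ion Proton sequencer. RPKM values of 41743 genes in 13 libraries, which the authors computed with CLC Genomics Workbench, were deposited. The build was mm10 per the labels. Mapping and counting settings are not given in the sources used here. Reads per gene were recovered from the RPKM values with a gene length found from the values, so they are approximate. From the deposited values log2(RPKM + 1) was computed and fitted in limma (version 3.58.1, R version 4.3.3) with a trend on intensity, and p-values were adjusted after Benjamini and Hochberg over all genes tested. The WT organs were fitted over the 9096 genes that reached 1 RPKM in 3 or more of 9 libraries (6 residual degrees of freedom), and the Rag-KO comparisons over the 9763 that reached it in 2 or more of 13 (8 residual degrees of freedom). The fits were tested on simulated data.

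The 9 genes and the lists were chosen with earlier results of these data known. All 9 were named in every comparison, as were called genes of the pathway lists or else up to 3 with the highest mean, and the 5 genes most like Abca1 and Abcg2. Scd2, Pltp, Sc5d and Cd36 were named for their values in WT thymus, after these were seen. Deviations of WT libraries with the same replicate number correlated at 0.30 to 0.57 for every pair (different numbers, -0.53 to 0.42, Rag-KO, -0.02). All negative values among WT libraries involved replicate 3. Between replicates 1 and 2 different numbers correlated at 0.26 to 0.42, so the data do not tell which of these belong together. The main fit holds no pairing, and the replicate number as a block is an alternative. A result of the sterol synthesis list is not reported here. Positions are from the mouse annotation of mm10, and promoter letters from RefSeq.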

Additional observations from a re-analysis of the deposited data

How the results depend on the processing

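Of the alternative values of 30 fold changes, 611 kept their direction and their side of the threshold. Another 25 passed it newly, 38 no longer passed it and 5 changed sign. Only fold changes above a set multiple of their standard error were counted, and smaller ones could change sign too. Without the 4 libraries that stood apart, Nr1h2 in WT thymus against WT spleen went from 0.59 to -0.27. Likewise, Apoe in WT lung against WT spleen went from 0.70 to -1.08. The cause of these changes was not tested. The fold change of Apoe in WT thymus against WT lung, -1.29, was 0.16 without the 4 libraries that stood apart and 0.19 without WT lung replicate 3 (-2.20 to 0.19 without 1 library at a time). That of Abca1 in Rag-KO + anti-CD3 against Rag-KO + control, 0.55, was -0.063 without the 4 libraries, without Rag-KO + control replicate 2, and without that library together with WT spleen replicate 3, an alternative added after seeing the data (-0.063 to 1.16 without 1 library at a time).

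Leaving out 1 library at a time, the number of the 9 genes past the limits for a call, Abca1 and Abcg2 counted as a description, ran from 1 to 4 in WT thymus against WT spleen, 2 to 6 in WT thymus against WT lung, 0 to 1 in WT lung against WT spleen, 0 to 2 in Rag-KO + control against WT thymus and 0 to 1 in Rag-KO + anti-CD3 against Rag-KO + control. In WT lung against WT spleen it was 2 without the 4 libraries (Apoe and Abcg2) and 1 without Rag-KO + control replicate 2 together with WT spleen replicate 3. In Rag-KO + control against WT thymus it was 2 under quantile normalisation, upper-quartile scaling, unadjusted p, a term for the 4 libraries and without them, and 0 with the 2 groups alone. In Rag-KO + anti-CD3 against Rag-KO + control it was 1 with unadjusted p and 1 without the 4 libraries. With the replicate block 5 genes were called in each of the thymus comparisons among WT organs, 1 in Rag-KO + control against WT thymus and 0 in the other 3, and the block changed no other call of these genes. The study's Dunnett rule gave 6 and 6 in the WT thymus comparisons.

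Among all genes the calls ranged over the alternatives from 56 to 601 in WT thymus against WT spleen (208 as reported), 131 to 838 against WT lung (295), 19 to 274 in WT lung against WT spleen (64), 21 to 498 in Rag-KO + control against WT thymus (106), 0 to 355 in Rag-KO + anti-CD3 against Rag-KO + control (13) and 1 to 117 in Rag-KO + anti-CD3 against WT thymus (8). In Rag-KO + anti-CD3 against Rag-KO + control 5 were higher and 8 lower, and 11 and 9 under quantile normalisation. The genes most like Abca1 and Abcg2 were found again for 0 and 1 of 5 by rank, and for 0 and 0 of 5 without Rag-KO + control replicate 2 together with WT spleen replicate 3. Depth limits Nr1h3 (1 to 28 reads a library) and Acsl3 (2 to 118). A group left with 1 library is assumed to vary like the others.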
